A study of Mus musculus with 6 samples.

Results

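A transcript cluster is the unit of a whole-transcript expression array: a group of probes placed along 1 annotated or predicted transcribed region and summarised as 1 value. Of the 65956 clusters on this mouse array, 33206 have no gene symbol in the platform annotation, while 30604 have 1 symbol and 2146 have several. The clusters described here are those without a symbol whose mean over the 6 arrays lay above 4.03 on the log2 scale, a level that 43992 of all clusters passed, and whose ID does not carry an X or Y chromosome code. They number 19060. Another 12467 clusters without a symbol had a mean at or under that level, and 1679 carried an X or Y code (922 of them above the level) and were left out. The 10 members nearest to the threshold had means of 4.03, as had the 10 clusters just under it.

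The kidneys came from female Pkd1 miR transgenic mice, a model of polycystic kidney disease in which a transgene is directed against Pkd1, the gene of polycystin-1. Both groups carried the transgene, and no mouse without it is compared here. From postnatal day 35, 3 mice received saline and 3 received metformin, a biguanide diabetes drug, at 150 mg per kg per day, both by injection into the peritoneum, and the kidneys were taken at day 63. The transgene's promoter was not given in the sources used here. Each array held the total RNA of 1 mouse kidney, and the labels name the 3 samples of a group biological replicates.

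Mammalian genomes are transcribed far beyond their named genes. The products include long noncoding RNAs, antisense and enhancer-derived RNAs, transcripts read through past a gene's end, retained intron sequence, multi-copy small RNA genes and expressed repeats, many of which stay in the nucleus or lack a poly(A) tail. A labelling kit that primes along the whole length of RNA, as the one used here does, can pick up such products together with messenger RNA. Which of these kinds a given cluster measures cannot be read from its ID, and no gene name is assigned to any of them here. No probe or cluster sequence was at hand, so none is printed.

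In the whole table, the Pkd1 cluster read 6.67 to 7.16 on the saline arrays and 7.34 to 7.58 on the metformin arrays. The change was 0.65 ± 0.16 log2 units (SE), with a limma adjusted p = 0.0312. Markers of the proximal tubule, the main segment of the kidney cortex, were high, with mean levels of 14.8 to 15.3 in saline and 13.8 to 14.6 in metformin kidneys (10 of 10 measured, 3 called lower). Markers of adipocytes, the cells of fat, had mean levels of 5.59 to 7.71 and 5.03 to 5.15 (12 of 13 measured, 4 called lower). Macrophage markers had 8.01 to 9.34 and 9.15 to 9.58, which overlap (9 of 9 measured, 2 called higher). Red blood cell markers had 6.97 to 7.18 and 6.19 to 6.59, with both of the 2 measured of 6 called lower. These were Alas2 and Slc4a1, and the correlation of their score with treatment was -0.930 across the 6 arrays. Whether these 2 genes report red blood cells in kidney was not tested. Markers of the loop, distal tubule and collecting duct had 14.9 to 15.1 and 14.6 to 14.8 (8 of 8 measured, 1 called lower), and those of podocytes overlapped (4 of 5 measured). In bulk tissue, a change in the number of cells of a type and a change in RNA per cell cannot be told apart.

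Metformin kidneys had higher signal than saline kidneys in a large share of the clusters without a symbol. Of the 19060 members, 3793 rose and 224 fell at a limma adjusted p under 0.05 (the meaning of "called" below), and 15043 did not pass. That is 19.9% higher and 1.18% lower. Over all 43992 clusters past the level filter, with or without a symbol, 12.6% were called higher and 5.05% lower, 17.7% in all, against 21.1% of the members. Among the 21191 clusters with 1 symbol, 1417 rose (6.69%) and 1831 fell (8.64%). Among the 1435 clusters with several symbols, 123 rose (8.57%) and 56 fell (3.90%). Of the called members 94.4% were higher, whereas 43.6% of the called clusters with 1 symbol were.

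The size of the common shift was modest and the called changes were larger. The median change of the members was 0.21 log2 units (metformin minus saline, 1.16-fold), with quartiles of 0.01 and 0.52, beside a median of 0.02 for clusters with 1 symbol and 0.09 for all clusters tested. In 76.4% of the members the change lay above 0, as it did in 53.1% of clusters with 1 symbol. The called rises had a median of 1.75-fold and ranged from 1.28-fold to 5.54-fold. At least 2-fold rises were seen in 1010 members, at least 3-fold in 114 and at least 4-fold in 21. The called falls had a median of 1.62-fold, and 43 were at least 2-fold, 3 at least 3-fold and 1 at least 4-fold.

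The shift was present on each array over the members as a whole. The median deviation of the members from their own 6-array mean was -0.14, -0.11 and -0.08 on saline arrays 1, 2 and 3 and 0.17, 0.07 and 0.08 on metformin arrays 1, 2 and 3. The groups did not overlap, and metformin replicate 1 stood highest. On the same arrays, clusters with 1 symbol deviated by -0.002, -0.009 and -0.002 in saline and by 0.04, -0.01 and -0.02 in metformin, where the groups overlapped. Within an array the difference between both medians does not change when a constant is added to the whole array. It was -0.14, -0.10 and -0.08 in saline and 0.13, 0.08 and 0.10 in metformin. The members' median deviation was thus the lower on the 3 saline arrays and the higher on the 3 metformin arrays. Deviations are taken from each cluster's own mean, so this restates the change and compares no levels. In level, the members' median lay below that of clusters with 1 symbol on all 6 arrays. The upper quartile of the members' levels ran from 6.92 to 7.10 in saline and from 7.40 to 7.60 in metformin. In the lowest bin of level, from the filter to 5, the deviations were -0.04, -0.09 and 0.004 in saline and 0.10, -0.02 and 0.03 in metformin, which overlap.

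**Figure D1:**
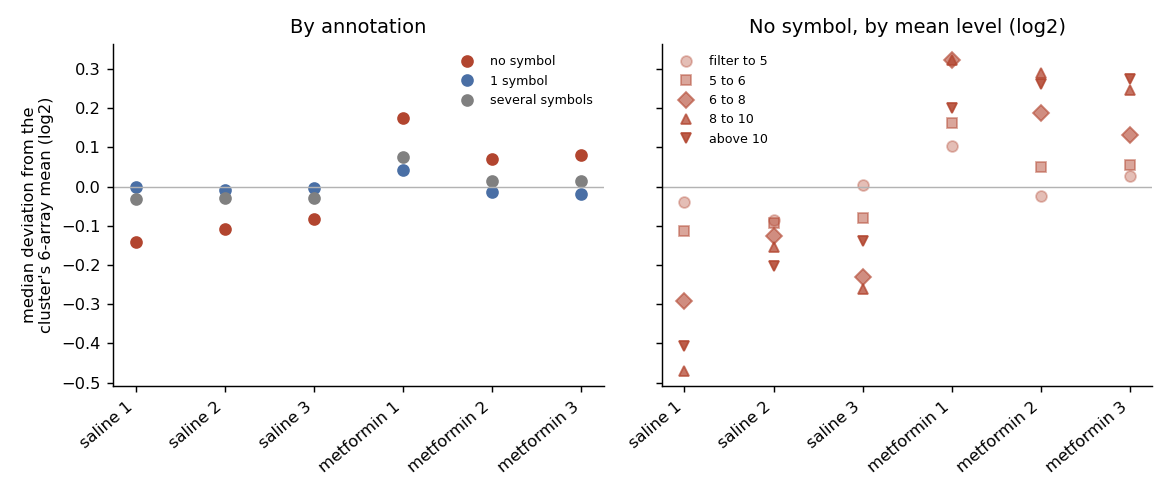
Median deviation of clusters from their own 6-array mean, in log2 units, for each array. The left panel sets clusters without a symbol beside those with 1 or several symbols, and the right panel splits those without a symbol by mean level. Taken as a whole, clusters without a symbol lie below 0 on the 3 saline arrays and above 0 on the 3 metformin arrays. In the bin from the filter to 5 the groups overlap, with saline replicate 3 at 0.004 and metformin replicate 2 at -0.02, and the groups are widest apart above 6.

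The same picture without a model came from the raw order of the values. In 6660 members all 3 metformin values lay above all 3 saline values (34.9%), and in 774 they all lay below (4.06%). Over all clusters tested these shares were 25.9% and 12.1%. Of the 3793 members called higher, 3792 had groups that did not overlap, as had all 224 members called lower. The calls rest on the same contrast of the same arrays, so this largely follows from the selection and is no separate support.

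The number of calls rested on single arrays and on the test, while the direction did not turn. Without saline replicate 1 there were 1181 members called higher and 58 lower, without metformin replicate 2 there were 1712 and 85, without metformin replicate 1 there were 1777 and 99, and without saline replicate 3 there were 2312 and 126. An equal-variance test of each cluster alone called 19 higher and 2 lower. With the adipocyte marker score of each array in the limma fit, 0 members were called in either direction, with 4982 at an unadjusted p under 0.05 and a median change of 0.19. That score ran from -0.31 to 1.80 in saline and from -0.88 to -0.75 in metformin and had a correlation of -0.799 with treatment across the 6 arrays. In such a fit the score and the treatment cannot be told apart.

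Scaling between arrays changed the split of the calls. After quantile normalization 2348 members were called higher and 481 lower, 83.0% higher in place of 94.4%, and after centring each array on its median 2611 and 331, or 88.7% higher. Clusters with 1 symbol moved further, from 1417 higher and 1831 lower (43.6% higher) to 803 and 2289 after median-centring (26.0%) and to 805 and 3010 after quantile normalization (21.1%). Quantile normalization moved the median change of all clusters tested from 0.09 to -0.01, that of clusters with 1 symbol from 0.02 to -0.10 and that of the members from 0.21 to 0.09. The difference between the members and the clusters with 1 symbol was 0.19 on the deposited values and 0.19 after quantile normalization. Median-centring shifts all clusters of an array alike, so it cannot change this difference.

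Members were dimmer on the whole than annotated clusters. The median of their mean levels was 5.60 log2 units with quartiles of 4.59 and 7.24, against 7.0 with quartiles of 5.03 and 9.40 for clusters with 1 symbol. Signals of different clusters come from different probes, so this compares distributions and not amounts of RNA. Above the level filter stood 60.5% of the clusters without a symbol and 74.1% of those with 1 symbol, X and Y codes aside. In the lowest bin, from the filter to 5, were 36.8% of the members, with 20.1% between 5 and 6, 25.6% between 6 and 8, 9.59% between 8 and 10 and 7.88% above 10. The corresponding shares of clusters with 1 symbol were 24.6%, 13.6%, 23.0%, 18.6% and 20.2%. No detection call per cluster was used here, so part of the lowest bin may lie at background.

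**Figure D2:**
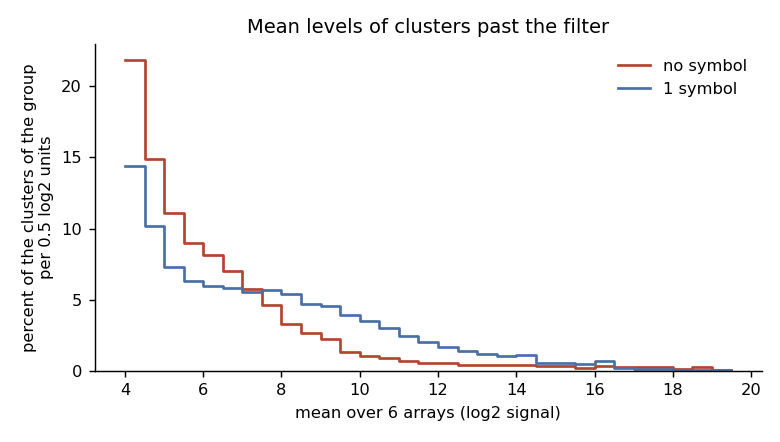
Share of clusters per 0.5 log2 units of mean signal over the 6 arrays, as a percent of the 19060 clusters without a symbol and of the 21191 with 1 symbol. Clusters without a symbol crowd towards the filter, with 36.8% of them under 5, and thin out above 8.

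Brighter members were called higher more often than dim ones. Of 7013 members from the filter to 5, 200 rose (2.85%) and 23 fell. Of 3840 members between 5 and 6, 475 rose (12.4%) and 25 fell, and of 4878 between 6 and 8, 1636 rose (33.5%) and 74 fell. Between 8 and 10, 809 of 1828 rose (44.3%) and 51 fell, and above 10, 673 of 1501 rose (44.8%) and 51 fell. The share called higher went up from bin to bin as far as 8 to 10. The order of the top bins depended on the scaling, with 34.1% and 33.6% after median-centring, 44.4% and 42.5% after centring on clusters with 1 symbol, and 33.4% and 37.6% after quantile normalization. After quantile normalization 113 rose and 61 fell in the lowest bin, 199 and 102 between 5 and 6, and 861 and 179 between 6 and 8. After median-centring these counts were 95 and 52, 250 and 55, and 1138 and 103. Clusters with 1 symbol were called higher in 1.21%, 5.52%, 6.27%, 8.01% and 13.4% of the same bins in ascending order, and lower in 0.422%, 2.32%, 7.14%, 14.6% and 19.1%. Over all clusters tested, members included, 2.09%, 9.16%, 19.4%, 19.0% and 21.6% were called higher in these bins. The shares called lower were 0.347%, 1.36%, 4.36%, 10.7% and 14.9%. In the lowest bin the members' share called higher was near that of all clusters tested.

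The median change of the members by level was 0.08, 0.18, 0.45, 0.63 and 0.52 log2 units from the lowest bin to the highest, where that of clusters with 1 symbol was 0.05, 0.06, 0.01, -0.05 and -0.11. The members' median therefore went up with level as that of annotated clusters went down, except between the top bins, where it was lower above 10 than between 8 and 10. After median-centring, the members' medians were -0.01, 0.09, 0.36, 0.54 and 0.43, so the lowest bin turned sign there, and after quantile normalization they were 0.01, 0.04, 0.24, 0.49 and 0.42. The members' 4 bins above 5 stayed above 0 under each scaling tried. Clusters with 1 symbol had medians of -0.04, -0.03, -0.08, -0.14 and -0.20 after median-centring. After quantile normalization theirs were -0.02, -0.08, -0.20, -0.18 and -0.17, lowest between 6 and 8, so their trend with level depended on the scaling.

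**Figure D3:**
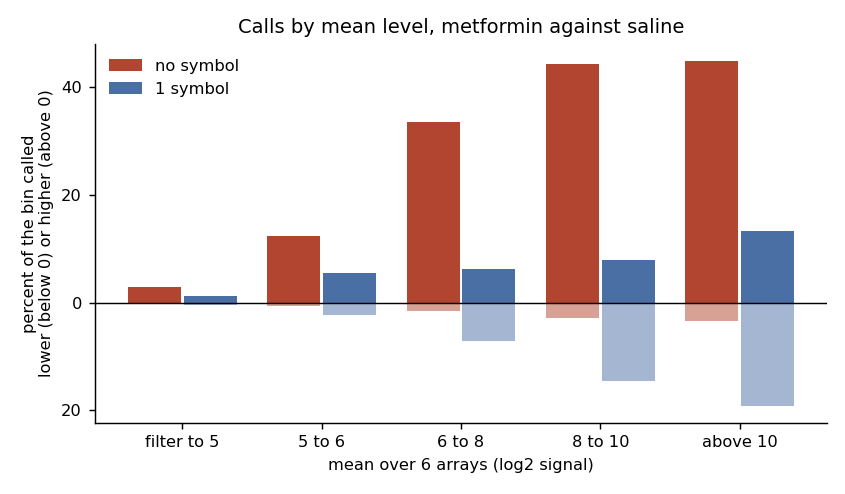
Percent of clusters called higher (bars above 0) or lower (pale bars below 0) in metformin kidneys by limma at an adjusted p under 0.05, in bins of mean log2 signal, for clusters without a symbol and with 1 symbol. The share called higher climbs from 2.85% to 44.8% in clusters without a symbol, while clusters with 1 symbol above 6 are called lower more often than higher.

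Single members were measured less precisely than annotated clusters. The median SD within groups was 0.20 log2 units for members and 0.15 for clusters with 1 symbol. By level it was 0.17, 0.20, 0.23, 0.27 and 0.22 in members and 0.13, 0.14, 0.15, 0.15 and 0.17 in clusters with 1 symbol. It was larger in members in each bin, and the part of the spread in the share of calls was not tested. The median SE of a member's change was 0.15. Correlations between arrays over the members were 0.989 to 0.993 within groups and 0.976 to 0.989 between groups.

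At the top of the scale, 312 members had a mean above 16, the number of bits a scanner commonly records, and the highest mean was 19.9. The deposited log2 values thus exceed that range, as the table's highest value of 19.9 does, and the step that gave them was not stated. Of these 312 members 113 rose and 4 fell, with a median change of 0.38. That is 37.5% called, beside 48.2% of the members above 10 and 36.5% of all clusters tested above 10. Among the 20 members with the highest means, from 19.0 to 19.9, 2 rose and 0 fell in the limma fit, the median change was 0.09 and the median SD within groups was 0.07.

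The shift was spread over the autosomes. The 19 numbered chromosome codes held from 545 members (chromosome 19) to 1656 (chromosome 2), and clusters without a symbol made up 37.8% (chromosome 7) to 59.0% (chromosome 18) of all clusters of a code. The median change lay between 0.17 (chromosome 7) and 0.25 (chromosome 1), and the share called higher between 15.5% (chromosome 7) and 23.5% (chromosome 18). The share called lower lay between 0.435% (chromosome 5) and 1.92% (chromosome 11). Every one of the 19 codes had a median above 0, and under the other scalings tried the lowest median of a code was still 0.08 after median-centring and 0.04 after quantile normalization. Clusters with 1 symbol on the same chromosomes had medians from -0.003 to 0.07 and were called higher in 4.76% to 8.07%. The difference between the median of the members and that of the clusters with 1 symbol ran from 0.14 (chromosome 14) to 0.23 (chromosome 2). Chromosome 7 stood lowest in the share of unnamed clusters, in the median change and in the share called higher. Whether it differs from the other chromosomes was not tested. Median levels of members differed little between codes, from 5.39 on chromosome 14 to 5.94 on chromosome 13.

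**Figure D4:**
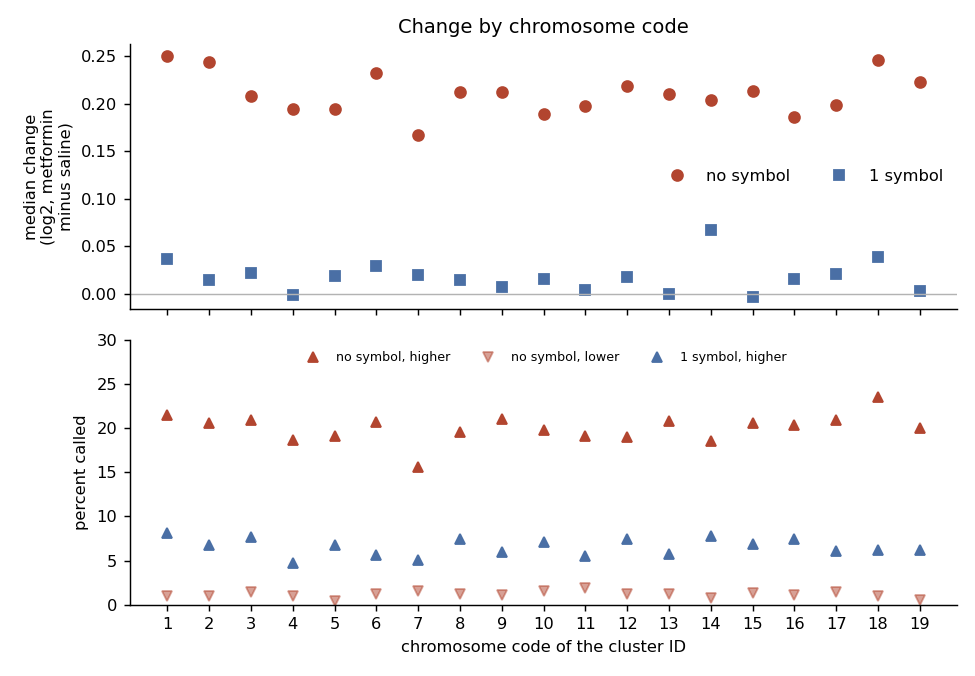
Median log2 change (metformin minus saline, upper panel) and percent of clusters called by limma (lower panel) for each of the 19 numbered chromosome codes. Medians of clusters without a symbol lie between 0.17 and 0.25 and those with 1 symbol between -0.003 and 0.07, with no overlap between both sets.

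Outside the numbered chromosomes stood 111 members, on unplaced or unlocalised scaffolds, without a mapped position or in the mitochondrial genome. Of these 18 rose (16.2%) and 1 fell (0.901%), with a median change of 0.13, beside 12.6% and 5.05% of all clusters tested. The mitochondrial genome, a small circle transcribed from both strands as long precursors that are cut at the transfer RNAs, gave 19 members with means from 8.51 to 18.6. Their changes ran from -0.92 to 0.68, 11 above 0 and 8 below. The one that rose had saline values of 16.68, 16.41 and 16.88 and metformin values of 17.19, 17.23 and 17.32 (change 0.59, limma adjusted p = 0.0280). The one that fell had 8.90, 8.61 and 8.72 in saline and 8.22, 8.31 and 8.32 in metformin (change -0.46, limma adjusted p = 0.0341). In both the groups did not overlap. The other 17 did not pass, so the mitochondrial members showed no common direction.

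The greatest rise by the naming rule, which takes the 2 largest called changes in each direction, was that of TC0300000191.mm.1 on chromosome 3. Its values were 7.24, 7.95 and 7.04 in saline and 10.46, 9.76 and 9.42 in metformin. The lowest metformin array stood well above the highest saline array, and metformin replicate 1 was the highest. The mean went from 7.41 ± 0.48 to 9.88 ± 0.53 (SD, n = 3 per group), a 5.54-fold rise (2.47 ± 0.31 log2 units, SE; limma adjusted p = 0.00746). It stayed called without any 1 array, with changes of 2.18 to 2.74.

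Next came TCUn_GL45638200000001.mm.1, which lies on an unplaced scaffold. It read 13.18, 13.18 and 13.05 in saline and 15.68, 15.48 and 15.36 in metformin, with narrow spread in both groups. The mean went from 13.14 ± 0.08 to 15.50 ± 0.16 (SD, n = 3 per group), a 5.16-fold rise (2.37 ± 0.12, SE). Its limma adjusted p of 0.00157 was the smallest among all members. It was also called by the equal-variance test of each cluster alone, unlike the other 3 clusters printed by ID.

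The largest called fall belonged to TC1000000824.mm.1 on chromosome 10, with 9.27, 10.55 and 5.53 in saline and 4.59, 4.47 and 4.88 in metformin. Saline replicate 3 lay close to the metformin arrays, and the other saline arrays stood far above. The change was -3.80 ± 1.09 (SE; limma adjusted p = 0.0495), from 8.45 ± 2.61 to 4.65 ± 0.21 (SD, n = 3 per group). On these arrays the score of the adipocyte markers was 0.96, 1.80 and -0.31 in saline and -0.88, -0.82 and -0.75 in metformin, in the same order within saline. With that score in the fit the change was 0.16 (limma adjusted p = 0.856). The other clusters printed by ID lost their calls in that fit too (limma adjusted p = 0.0566 each). Changes were 3.09 for TC0300000191.mm.1, 2.46 for TCUn_GL45638200000001.mm.1 and -1.99 for TC0200001533.mm.1. Score and treatment cannot be told apart there. The call of TC1000000824.mm.1 also ended without any replicate other than saline replicate 3. Its changes were -2.75 without saline replicate 2, -3.39 without saline replicate 1, and -3.77, -3.71 and -3.91 without metformin replicates 1, 2 and 3. Without saline replicate 3 the change was -5.26 and called. The call was kept in 5 of 17 alternatives. It also ended with the replicate number as block (limma adjusted p = 0.0502), after median-centring (0.0538) and quantile normalization (0.0519), with no filter (0.0632), with trended robust moderation (0.0519) and with no moderation (0.208).

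TC0200001533.mm.1 on chromosome 2 fell with far less spread. It read 9.16, 9.0 and 9.29 in saline and 7.30, 7.23 and 7.57 in metformin, and the groups stood clearly apart. The mean went from 9.15 ± 0.15 to 7.37 ± 0.18 (SD, n = 3 per group), a 3.45-fold fall (-1.79 ± 0.14, SE; limma adjusted p = 0.00742). It too stayed called without any 1 array, with changes of -1.72 to -1.89. None of these 4 clusters shares its values with another cluster.

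**Figure D5:**
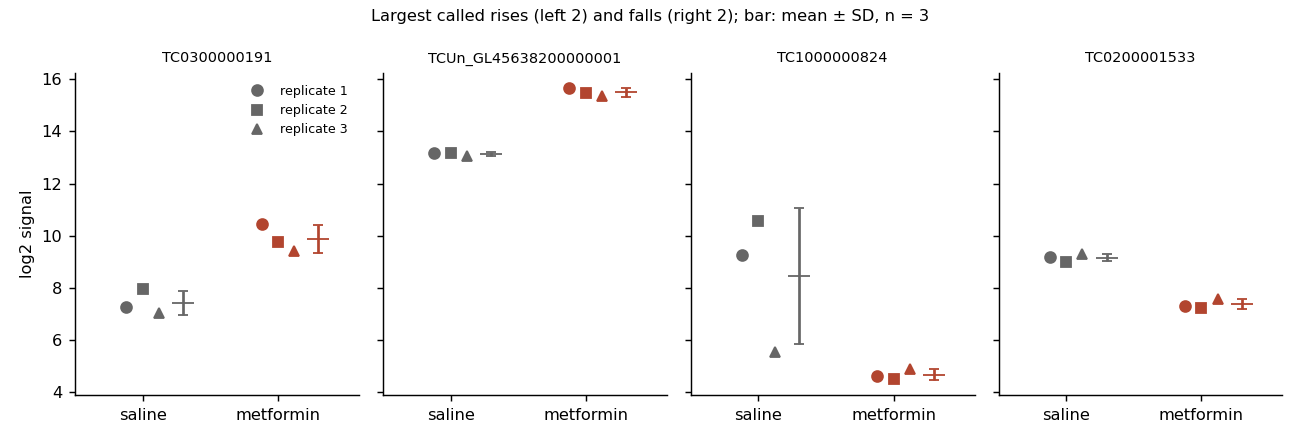
Log2 signal of the 4 clusters printed by ID on each array (symbols mark replicates 1, 2 and 3), with the mean and SD of 3 arrays per group beside the points. The groups are apart in all 4, and TC1000000824 has a saline spread of 2.61 (SD) with saline replicate 3 at 5.53.

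Among the members that did not pass, the 2 largest falls had the same kind of saline spread. The first, on chromosome 6, read 10.65, 11.50 and 7.88 in saline and 7.67, 7.86 and 7.57 in metformin, a change of -2.31 ± 0.79 (SE; limma adjusted p = 0.0827). The second, on chromosome 4, read 5.59, 5.68 and 3.8 in saline and 3.70, 3.02 and 3.84 in metformin, a change of -1.50 ± 0.49 (SE; limma adjusted p = 0.0694). In both, saline replicate 3 lay near the metformin values, as in the largest called fall, and in the second it lay within them.

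Array by array, the median deviations of both sets of called members ranked the saline arrays alike by distance from the metformin arrays. The 3793 members called higher had median deviations of -0.52, -0.28 and -0.42 in saline replicates 1 to 3 and 0.51, 0.38 and 0.31 in metformin replicates 1 to 3. Saline replicate 1 was the lowest saline array in 54.5% of them, replicate 3 in 32.0% and replicate 2 in 13.5%. For the 224 members called lower, saline replicate 2 was the lowest saline array in 66.5%, replicate 3 in 19.2% and replicate 1 in 14.3%. The median deviations of the members called lower were 0.43, 0.21 and 0.37 in saline and -0.43, -0.31 and -0.27 in metformin. By the medians, saline replicate 1 stood farthest from the metformin arrays and saline replicate 2 nearest in both sets. The lowest saline array is the farthest from metformin in a member called higher and the nearest in a member called lower. These members were selected by the same contrast, so the values only describe them.

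The ID numbers of the array run along each chromosome, first through 1 strand and then through the other. Of the clusters with 1 symbol whose gene has a RefSeq position (assembly GRCm38.p6), 99.7% had the chromosome of their code. Among neighbours in ID number on a code, 99.1% of 29988 pairs were in ascending order of gene start. Before the point where the order starts again, 93.8% of these clusters had a gene on the plus strand, and after it 97.3% had one on the minus strand. Neighbours in number are therefore mostly neighbours on the same strand. The array's own genome build was not stated, so neighbours are given by ID number alone.

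Members next to each other in number had more similar changes than members further apart. Over 11625 members whose nearest member was the very next number, the changes of both correlated at 0.425 (Pearson; Spearman 0.422), after leaving out 24 pairs with identical values. Over 6686 members whose nearest member was 2 to 5 numbers away the correlation was 0.03, and over 17686 pairs 50 to 60 numbers apart 0.003. Clusters with 1 symbol at a distance of 1 number correlated at 0.141 (12698 pairs). These correlations are across clusters of the same 6 arrays, which are not independent, and neighbours can share transcripts, probes or base composition. Mean levels of members correlated too, at 0.255 for the very next number, 0.03 at 2 to 5 and -0.004 at 50 to 60. Calls and changes depended on level, and the part of shared level in these figures was not tested. Where the next member was itself called higher, 42.6% of members were called higher, against 17.8% where it was not called.

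Members also went with annotated neighbours, though less closely. Over 10196 members with a cluster of 1 symbol at the very next number the correlation of the changes was 0.173, and that of the mean levels 0.109. Where that cluster was called higher (818 members), 32.3% of the members were called higher and their median change was 0.37. Where it was called lower (924 members), 12.4% of the members were still called higher, 2.49% were called lower, and the median change was 0.13. Where it was not called (8454 members), 17.7% were called higher. Among all members 19.9% were called higher and 1.18% lower, and among all clusters tested 12.6% and 5.05%. Whether the annotated neighbour has a part in a member's change was not tested.

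Stretches of consecutive numbers in which each cluster was a member called higher show this at single places, chosen here after their values were seen. Runs of 5 or more occurred 45 times and held 272 of the 3776 members called higher that have a chromosome code and number (7.20%). The longest run was 14 members on chromosome 9, with changes between 0.48 and 1.71 (median 0.95) and limma adjusted p from 0.00746 to 0.0394. Their median levels were 6.12, 6.56 and 6.23 for the saline kidneys and 7.16, 7.12 and 7.21 for the metformin kidneys. These members were selected as called higher, so the gap between the groups only describes them. The number just before the run belongs to 9530091C08Rik, whose cluster rose by 1.33 ± 0.16 (SE; limma adjusted p = 0.00746). The nearest cluster with 1 symbol after it, 9 numbers on, is that of Anxa2, a membrane-binding annexin, at 0.65 ± 0.32 (SE; limma adjusted p = 0.209).

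The largest rise also sat in such a stretch. Within 5 numbers to either side of TC0300000191.mm.1 were 7 members, and 5 of them rose, by 2.15, 2.36, 2.13, 2.20 and 2.47 log2 units in order of number. The other 2 had changes of 0.11 and -0.12 and did not pass. All 5 members of chromosome 3 that rose at least 4-fold were these, out of 21 such members on 13 codes. The cluster of Egfem1, a gene for a protein with EGF-like domains, has the number just before these 5 and rose by 1.22 ± 0.15 (SE; limma adjusted p = 0.00746). The number just after them belongs to the microRNA Mir551b, with a change of -0.02 (limma adjusted p = 0.920). The first cluster with 1 symbol beyond the 7 members, that of the zinc finger gene Mynn, had a change of -0.16 ± 0.10 (SE; limma adjusted p = 0.312). Neighbouring clusters of this kind may measure the same transcript, so they are not counted as separate events.

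Some members are copies of one another as far as the array can tell. Identical values on all 6 arrays were shared with another cluster by 574 members, in 129 sets, so the 19060 members are 18615 distinct measurements. Of the 129 sets 66 spanned more than 1 chromosome code. The largest set held 63 clusters, 61 of them members, on 18 codes, with a level of 9.35 and a change of 0.76 that did not pass. Of the 129 sets 35 rose (27.1%) and 0 fell in the limma fit, with a median change of 0.47. The median level of the sets was 7.63. Between 6 and 8, 33.5% of the members rose and 1.52% fell, with a median change of 0.45. Over all clusters tested in that bin 19.4% rose and 4.36% fell. With 1 row kept for each set, 3691 members were called higher and 224 lower.

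In 8 sets a member had the same values as clusters with 1 symbol, which ties those 8 members to a known kind of RNA. In 4 sets these were small nuclear RNAs of the spliceosome and related particles, in 2 microRNAs and in 2 pseudogenes. One member had the values of 48 small nuclear RNA clusters, among them Rnu6, a U6 gene, with a level of 16.1, and rose by 0.86. U6 is the small nuclear RNA at the catalytic centre of the spliceosome. One had those of 6 such clusters, among them Rnu1a1, a U1 gene, with a level of 16.3, and rose by 0.63. U1 is the RNA that recognises the start of an intron.

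Annotated clusters differed by RNA class in how many rose. Of 14400 protein-coding clusters 4.03% rose and 11.1% fell, with a median change of -0.01. Their counts went from 581 higher and 1605 lower to 229 and 1975 after median-centring and to 279 and 2574 after quantile normalization, with medians of -0.10 and -0.14. Of 1596 long noncoding RNA clusters 3.32% rose and 2.38% fell, with a median of 0.04 that turned to -0.05 after median-centring and after quantile normalization. Their counts of 53 higher and 38 lower turned to 29 and 61 and to 26 and 86. Of 2666 pseudogene clusters 6.34% rose and 6.11% fell, with a median change of -0.04 and a median level of 6.79. Of 255 transcribed pseudogene clusters 9.41% rose and 5.10% fell, with a median change of 0.03 and a median level of 6.05. Among 609 clusters of small nucleolar RNAs, which guide RNA modification, 14.0% rose (median 0.24), and among 401 microRNA clusters 22.7% (median 0.29). Among 690 small nuclear RNA clusters 47.4% rose (median 0.51), or 257 of 616 distinct measurements. Among 86 ribosomal RNA clusters 75.6% rose (median 0.76), but by distinct measurement only 8 of 22 did. The ribosomal count of clusters, copies included, fell from 65 to 37 after median-centring and to 38 after quantile normalization. The microRNA count fell from 91 to 70 and 41, and the small nucleolar RNA count from 85 to 55 and 48. The share of members that rose, 19.9%, lay between those of the small nucleolar RNA and the microRNA clusters on the deposited values. The median level was 4.72 for long noncoding, 5.40 for small nucleolar and 5.67 for microRNA clusters. It was 7.01 for small nuclear, 7.55 for protein-coding and 14.2 for ribosomal RNA clusters, beside 5.60 for the members. Calls depended on level, so these shares do not compare the classes at a like level. Of the small RNA classes named, 1 small nucleolar, 2 microRNA, 0 small nuclear and 0 ribosomal RNA clusters fell in the limma fit of the deposited values, and their medians stayed above 0 under each scaling tried. The tubule and red blood cell markers, whose mean levels did not overlap between the groups, were not put into a fit, and their part in the members' shift was not tested.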

How the data were processed

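Total RNA of snap-frozen kidney was extracted with TRIzol and labelled by the GeneChip WT PLUS method, per the labels' protocols. The authors deposited log2 values, 1 for each cluster and array, and the submitters' processing notes name RMA and Transcriptome Analysis Console 4.0 as the tools. RMA corrects background, normalizes between arrays and summarises probes. A shift common to all clusters of an array can therefore not be read from the deposited values. The form of RMA and the probe definitions are not stated. Here the deposited values were used without further scaling. Clusters with a mean above 4.03 were fitted with limma 3.58.1 (lmFit and eBayes in R 4.3.3, metformin minus saline), and p-values were adjusted by Benjamini-Hochberg over all 43992, X and Y codes included. Shares and medians were computed afterwards, with symbols from the platform annotation and RNA classes from a RefSeq table (30294 of the 30604 clusters with 1 symbol matched). The fit was tested on simulated data.

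The clusters printed by ID are the 2 largest called changes in each direction. Members and lists were chosen with earlier results of these data known. The 6 arrays limit the precision, and no slide or scan batch was used. Samples with the same replicate number deviated together, with correlations of 0.12, 0.14 and 0.42, though saline replicate 2 with metformin replicate 1 reached 0.20. What the numbers share is not stated in the labels.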

Additional observations from a re-analysis of the deposited data

How the results depend on the processing

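Leaving out 1 array at a time gave 1181 to 3998 members called higher, 58 to 298 lower and 1239 to 4296 in all, with 93.1 to 95.3% of the calls higher. Fewest came without saline replicate 1 and most without saline replicate 2. Centring arrays on the median of all clusters gave 88.7% higher and a median change of 0.12. Quantile normalization gave 2348 higher, 481 lower, 83.0% higher and a median change of 0.088. Raising the filter to the median of all clusters, which leaves 13331 members, gave a median change of 0.34 and a difference of 0.34 from clusters with 1 symbol. Without moderation, 19 were called higher and 2 lower, 21 in all (90.5% higher), with 5364 at an unadjusted p under 0.05. With the adipocyte score in the limma fit 0 were called higher, 0 lower and 0 in all, with 4982 at an unadjusted p under 0.05, and TC1000000824.mm.1 turned to 0.16. The causes of these differences were not tested. With the replicate number as a paired block, 4322 were called higher and 285 lower, 4607 in all, of which 3420 higher calls were shared. Of the 4 clusters printed by ID, the block ended the call of TC1000000824.mm.1. The counts of higher and lower calls stayed within 1.5 times under array weights, trended robust moderation, no filter, centring on clusters with 1 symbol and 1 row for each identical set. Low signals cannot be told from background without a detection call.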
